A study of Mus musculus with 12 samples.

Results

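NRF2 is the transcription factor of the cellular antioxidant response, and the set described here holds its gene (Nfe2l2), the gene of its inhibitor KEAP1 (Keap1) and 8 classic NRF2 targets, Srxn1, Gpx2, Hmox1, Nqo1, Gclc, Gclm, Txnrd1 and Slc7a11. Members were taken by name, and every probe whose transcript accession maps to one of them is reported. That gave 15 of 41174 probes on the array design used for vitamin C and 11 of 55681 probes on the design used for retinoic acid, covering all 10 genes on each, of 18749 and 20660 genes matched in all. The cells were of J1, a pluripotent embryonic stem cell line of the mouse, grown here on gelatin in serum replacement medium, with β-mercaptoethanol, itself a thiol reductant, and 1000 U/mL of leukaemia inhibitory factor in every group. For 24 h they received vitamin C (VC, labelled as 50 µg with no volume given) or its water control (ddH2O, 1 µL), retinoic acid (RA, 1 µM) or its solvent control (DMSO, 1 µL), with 3 samples a group. Each sample's total RNA was hybridised to its own one-colour (Cy3) Agilent array.

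In resting cells KEAP1 holds NRF2 in the cytoplasm and hands it to a CUL3 ubiquitin ligase for degradation. Oxidants and electrophiles modify cysteines of KEAP1, NRF2 then accumulates, pairs with a small MAF protein and binds antioxidant response elements near its target genes. Much of this control acts on the NRF2 protein, which arrays do not measure. The targets rebuild thiols, make glutathione, and clear quinones and haem.

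The antioxidant response element has the core TGACNNNGC, where N is any base, and it was searched on both strands in the RefSeq promoter windows of GRCm38.p6, which hold 250 bases before and 50 after a start site. Of the 10 members, 8 had such windows, 10 windows in all, and 4 of those 10 held the core, against 12.4% of all 32851 windows. A second motif, TGANTCAGC, the form to which NF-E2 proteins bind, was searched after these sequences had been read. It lay in 1.19% of all windows and in 1 window of the set, that of Srxn1. Some sequences satisfy both motifs at once. The 4 windows with a match are shown because they are the places in the set where either motif can be read, with the matched bases in capitals.
Srxn1 (chr2:152105274-152105573, plus strand): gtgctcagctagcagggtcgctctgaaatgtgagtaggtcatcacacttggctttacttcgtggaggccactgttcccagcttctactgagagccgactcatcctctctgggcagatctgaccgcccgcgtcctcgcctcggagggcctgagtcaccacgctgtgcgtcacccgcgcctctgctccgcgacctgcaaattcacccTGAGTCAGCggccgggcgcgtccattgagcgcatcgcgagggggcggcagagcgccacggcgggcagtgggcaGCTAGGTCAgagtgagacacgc
Gclm (chr3:122245307-122245606, plus strand): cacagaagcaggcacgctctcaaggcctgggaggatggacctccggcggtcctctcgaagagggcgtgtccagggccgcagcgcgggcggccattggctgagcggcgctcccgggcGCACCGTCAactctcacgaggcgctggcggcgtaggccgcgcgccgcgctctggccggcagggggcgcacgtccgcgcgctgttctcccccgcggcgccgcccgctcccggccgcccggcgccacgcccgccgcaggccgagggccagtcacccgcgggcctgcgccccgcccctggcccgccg
Txnrd1 (chr10:82858956-82859255, plus strand): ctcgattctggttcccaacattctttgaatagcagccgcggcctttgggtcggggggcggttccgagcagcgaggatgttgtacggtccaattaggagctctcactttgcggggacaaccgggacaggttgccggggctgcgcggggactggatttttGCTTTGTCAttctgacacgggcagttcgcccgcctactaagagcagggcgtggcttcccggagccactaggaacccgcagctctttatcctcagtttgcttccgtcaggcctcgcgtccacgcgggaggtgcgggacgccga
Nfe2l2 (chr2:75704614-75704913, minus strand): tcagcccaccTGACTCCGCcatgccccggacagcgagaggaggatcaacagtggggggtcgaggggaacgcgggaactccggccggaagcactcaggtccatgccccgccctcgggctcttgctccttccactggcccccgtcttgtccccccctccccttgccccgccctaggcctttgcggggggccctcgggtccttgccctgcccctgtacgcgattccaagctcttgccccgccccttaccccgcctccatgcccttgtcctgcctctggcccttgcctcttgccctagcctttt
The Srxn1 window held TGANTCAGC 45 bases before the start site and the reverse of the core 28 bases after it. The core began 134 bases before the start site in Gclm and 92 bases before it in this Txnrd1 window, both on the reverse strand, and 240 bases before it in Nfe2l2. Neither motif occurred in the windows of Keap1, Gpx2, Nqo1 and Slc7a11 or in the other 2 Txnrd1 windows. A match is a string of letters and not a measured site, and the absence of one speaks of these 300 bases only.

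Levels below are log2 of the processed spot signal minus the array's 75th percentile, so a level of 0 equals that percentile, and a difference of 1 is a doubling. Levels of different probes cannot be set against each other. Testing a probe required a signal well above background on 3 or more of its design's 6 arrays. On single arrays 67.1% to 70.4% of spots reached that mark in the VC and ddH2O samples, and 61.6% to 66.2% in the RA and DMSO samples, with no spot saturated. The 75th percentile itself lay between 495.7 and 673.3 intensity units on the VC arrays, against 563.1 to 698.8 on the ddH2O arrays. It lay between 287.7 and 388.1 intensity units on the RA arrays, against 607.8 to 612.1 on the DMSO arrays. No spot of a member was an outlier flagged by the scanner software. The labels do not name separate cultures for the 3 samples of a group, so p-values cover the spread among these samples alone, and that spread may be technical.

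In VC, 6 of the 9 members that could be tested rose and none fell: Srxn1, Gpx2, Nqo1, Txnrd1, Gclm and Keap1 (limma, Benjamini-Hochberg adjusted p under 0.05 over 28157 probes). Over all 14530 genes tested by their brightest probe, 3.18% were called higher and 7.14% lower, 10.3% in all. Rises made up 30.8% of those calls, 50.6% after median scaling and 3.9% after spike-in scaling. RNA came from bulk cultures, in which fewer cells of a type and less RNA per cell cannot be told apart. No member fell at an unadjusted p under 0.05 either. The median log2 difference of the 9 was 0.41, against -0.001 over all genes. By probe, 8 of 12 tested rose, against 2.97% of all probes higher, 5.32% lower and 8.29% in all. In 7 of the 9 genes the VC arrays did not overlap the ddH2O arrays, which held for 42.1% of all genes, and in 9 of 12 probes, which held for 36.6% of all probes.

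**Figure D1:**
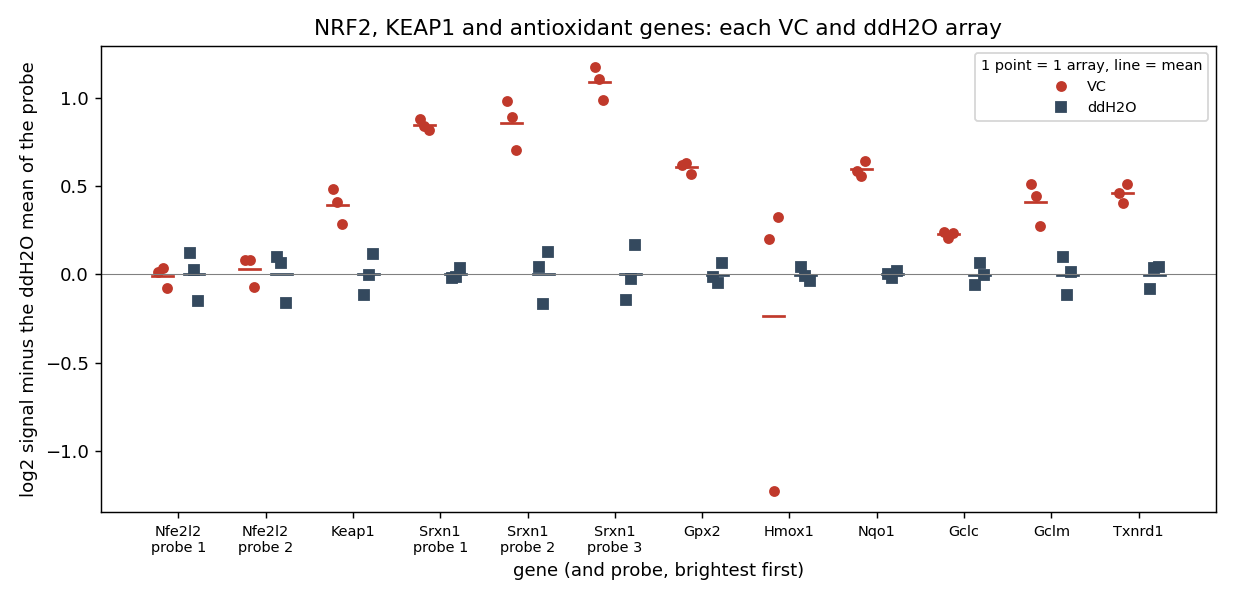
Log2 signal of each tested member probe on each array, less the mean of the ddH2O arrays for that probe (vertical axis, log2 units), for VC (circles) and ddH2O (squares), with a line at each group mean. All VC points lie above all ddH2O points in every probe of Srxn1 and in Keap1, Gpx2, Nqo1, Gclc, Gclm and Txnrd1, while 1 VC point of Hmox1 lies far below the rest.

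Srxn1 encodes sulfiredoxin, which repairs over-oxidised peroxiredoxins, and it had the largest rise of the set. Its brightest probe read 3.30, 3.26 and 3.24 in VC, against 2.40, 2.40 and 2.46 in ddH2O. The VC arrays lay close together and clear of the controls, a 1.80-fold rise (log2 difference 0.85, SE 0.06, limma adjusted p = 0.008265) that ranked at place 29 from the top of 14530 genes. Its other probes, which share the transcript and so are not replicates, gave the same direction. The second probe read -1.06, -1.15 and -1.33 in VC, against -2.00, -2.21 and -1.91 in ddH2O (difference 0.86, SE 0.11). The third read -1.29, -1.36 and -1.48 in VC, against -2.61, -2.49 and -2.30 in ddH2O (difference 1.09, SE 0.10). All 3 probes therefore separated the groups, by 0.85 to 1.09 log2 units.

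Txnrd1 encodes the cytosolic thioredoxin reductase, the enzyme that returns thioredoxin to its reduced form. It read 5.71, 5.65 and 5.76 in VC, against 5.17, 5.28 and 5.29 in ddH2O. The groups did not overlap, and the rise was 1.38-fold (log2 difference 0.46, SE 0.07, limma adjusted p = 0.02033). Gpx2 encodes a selenium-dependent glutathione peroxidase best known from the gut. It read 1.59, 1.60 and 1.54 in VC, against 0.96, 0.92 and 1.04 in ddH2O. The spread within each group was small beside the difference, 1.52-fold (0.61, SE 0.06, limma adjusted p = 0.01329).

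Gclc and Gclm encode the catalytic and the modifier subunit of glutamate-cysteine ligase, the first and limiting enzyme of glutathione synthesis. The modifier gene Gclm read 0.40, 0.33 and 0.16 in VC, against -0.02, -0.23 and -0.10 in ddH2O. It rose 1.33-fold (log2 difference 0.41, SE 0.09, limma adjusted p = 0.04638). The catalytic gene Gclc read 3.02, 2.99 and 3.01 in VC, against 2.72, 2.84 and 2.77 in ddH2O. These groups did not overlap either, but the difference of 0.23 (SE 0.06) did not pass (limma adjusted p = 0.06821). Gclc was called higher in 4 of 22 alternatives. It passed with median scaling (limma adjusted p = 0.04383) and when the model was fitted and adjusted on the brightest probe of each gene alone (limma adjusted p = 0.03977). It also passed with the mean of a gene's probes (limma adjusted p = 0.03893) and with a variance trend (limma adjusted p = 0.02579). Whether the subunits differed in response was not tested.

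Nqo1 encodes a quinone reductase and is the gene most used as a readout of NRF2. It read 1.00, 0.97 and 1.05 in VC, against 0.41, 0.39 and 0.43 in ddH2O, with the arrays of each group within a narrow band. The rise was 1.51-fold (log2 difference 0.60, SE 0.06, limma adjusted p = 0.01269). Hmox1 encodes haem oxygenase 1, which breaks down haem and is also repressed by BACH1. It read 3.46, 2.03 and 3.58 in VC, against 3.30, 3.25 and 3.22 in ddH2O. VC replicates 1 and 3 stood above all controls and replicate 2 far below them, so the difference was -0.23 with an SE of 0.40 (limma adjusted p = 0.738). Without VC replicate 2 it was 0.26 (SE 0.08, limma adjusted p = 0.1024), so neither value passed.

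The sensor and the factor were measured as well. Keap1, whose product restrains NRF2, read 1.87, 1.80 and 1.68 in VC, against 1.28, 1.39 and 1.51 in ddH2O. It rose 1.31-fold (log2 difference 0.39, SE 0.09, limma adjusted p = 0.04619). Nfe2l2 itself had differences of -0.01 (SE 0.09) and 0.03 (SE 0.09) on its probes, with limma adjusted p = 0.9572 and 0.8525. Its brightest probe read 2.97, 2.996 and 2.88 in VC, against 3.08, 2.98 and 2.81 in ddH2O, and the groups overlapped. Slc7a11, which encodes the cystine transporter subunit xCT, had 3 probes, none of which was well above background on any of the 6 arrays (levels between -8.165 and -7.731 in VC, against -8.111 to -7.856 in ddH2O), and no fold is given.

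The arrays lay on 3 slides, and 1 slide held VC replicates 1 and 2 with ddH2O replicates 2 and 3. Within it the log2 differences were 0.85 for Srxn1, 0.62 for Gpx2, 0.58 for Nqo1, 0.53 for Gclm, 0.39 for Txnrd1 and 0.39 for Keap1. Between VC replicate 3 and ddH2O replicate 1, which lay on slides of their own, they were 0.83, 0.59, 0.64, 0.18, 0.60 and 0.40 in the same order. VC replicate 3 was scanned on a later day than every other array of this design. In that contrast slide, scan day and treatment therefore cannot be told apart. Among these 6 genes Gclm differed most between the settings. Hmox1, which was not called, differed more and lay at -0.49 within the slide and 0.28 outside it. With slide as a block limma called 0 members and 0 of all genes, although 6 members had an unadjusted p under 0.05. With slide as a random block it called the 6 members and 1661 of all genes. Left out in turn, VC replicate 1, ddH2O replicate 1 and ddH2O replicate 2 each left 0 members called, with 7 at an unadjusted p under 0.05 in each case, and 0 of all genes called. Without VC replicate 3 or ddH2O replicate 3 there were 3, Srxn1, Gpx2 and Nqo1, and without VC replicate 2 there were 4, these and Txnrd1. The log2 difference of Srxn1 stayed between 0.83 and 0.86 over these 6 fits, with limma adjusted p between 0.02928 and 0.07558. That of Keap1 stayed between 0.34 and 0.45.

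**Figure D2:**
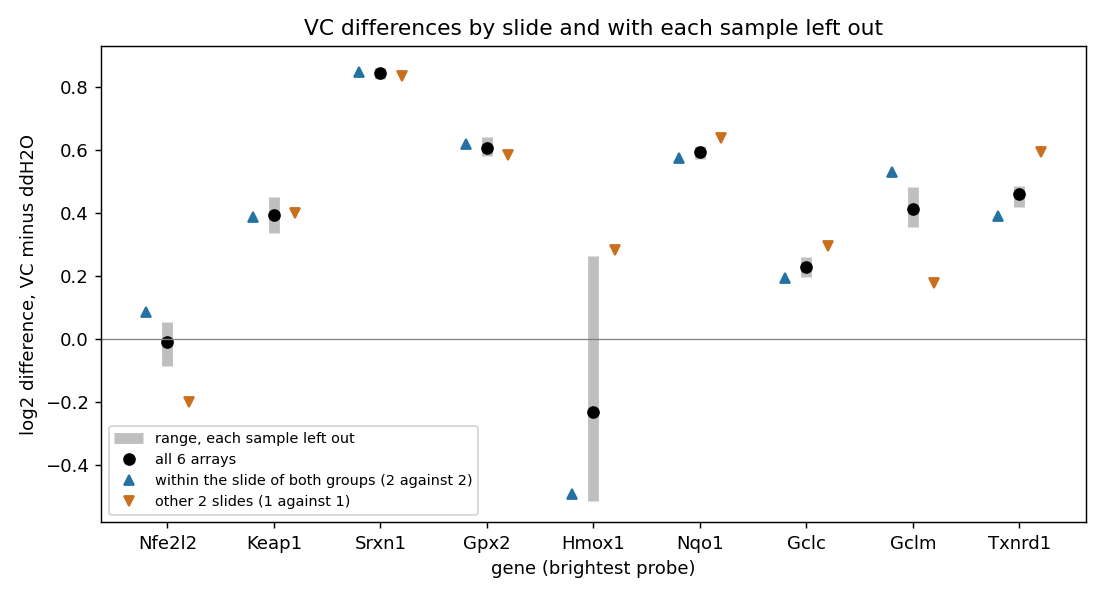
Log2 difference, VC minus ddH2O, of the brightest probe of each tested member (vertical axis, log2 units) over all 6 arrays, within the slide that held both groups, between the arrays on the other slides, and as the range with each sample left out (grey bar). Srxn1 lies between 0.83 and 0.86 in every form, whereas Hmox1 spans -0.51 to 0.28.

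In RA, Nfe2l2 itself fell, together with Hmox1, Nqo1 and Gclm. Keap1 and Txnrd1 rose in the main scaling by amounts that depended on the scaling, being near or below 0 after median and spike-in scaling and larger with quantile normalization and on the authors' series values. Of the 9 members tested, 4 fell and 2 rose, where 40.8% of all 16015 genes were called lower and 34.8% higher, 75.6% in all. Calls among the members were thus no more frequent than over all genes. Of all genes 16.8% had a lower difference than Nfe2l2, 15.0% a lower one than Nqo1 and 13.2% a lower one than Gclm. Rises made up 46.1% of those calls, 30.9% after median scaling and 28.7% after spike-in scaling. By probe 5 of 10 fell and 2 rose, against 35.5% and 36% of all probes, 71.6% in all. The groups did not overlap in 8 of the 9 genes, which held for 81.7% of all genes, and in 9 of 10 probes, which held for 77.1% of all probes. The median log2 difference of the members was -0.19, against -0.075 over all genes. All RA arrays lay on 1 slide and all DMSO arrays on another, so slide and treatment cannot be told apart.

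**Figure D3:**
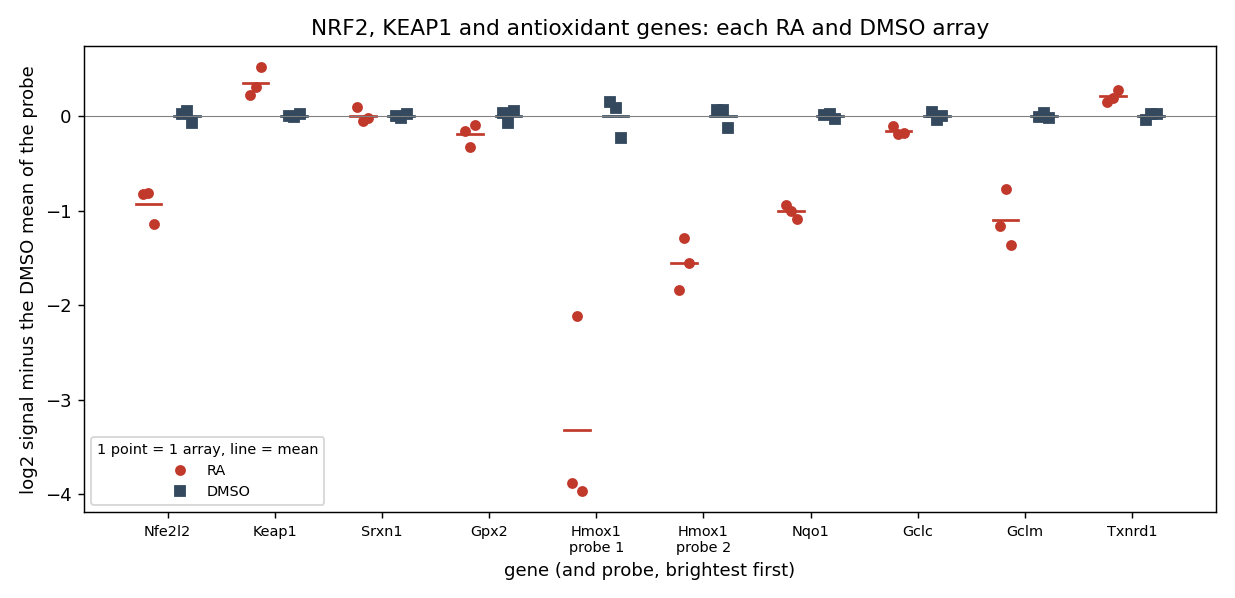
Log2 signal of each tested member probe on each array, less the mean of the DMSO arrays for that probe (vertical axis, log2 units), for RA (circles) and DMSO (squares), with a line at each group mean. Both Hmox1 probes, Nfe2l2, Nqo1 and Gclm lie below DMSO on all 3 RA arrays, and the RA points of the brightest Hmox1 probe are the most widely spread.

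Nfe2l2 read 2.77, 2.79 and 2.45 in RA, against 3.62, 3.65 and 3.52 in DMSO. Every RA array lay below every DMSO array, a 1.90-fold fall (log2 difference -0.93, SE 0.11, limma adjusted p = 0.0005688). Keap1 read 2.18, 2.27 and 2.48 in RA, against 1.96, 1.95 and 1.98 in DMSO. The ratio was 1.27 (log2 difference 0.35, SE 0.10, limma adjusted p = 0.01741), but the log2 difference was 0.006 after median scaling and -0.04 after scaling to the spike-in controls. It was 0.55 with quantile normalization (limma adjusted p = 0.003891) and 0.521 on the authors' series values (limma adjusted p = 0.004728). Median and spike-in scaling put the median of all genes at -0.416 and -0.462, against -0.075 in the main scaling. Relative to the median gene Keap1 stood at 0.42 and Nfe2l2 at -0.85.

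Hmox1 had the largest fall of the set. Its brightest probe read -0.74, 1.02 and -0.83 in RA, against 3.29, 3.22 and 2.90 in DMSO. Replicate 2 of RA stood well above the other 2 RA arrays and still below all controls. The fall was 9.98-fold (log2 difference -3.32, SE 0.51, limma adjusted p = 0.001505), at place 239 from the bottom of 16015 genes, and -3.92 without RA replicate 2. A second probe read -2.35, -1.80 and -2.06 in RA, against -0.45, -0.45 and -0.64 in DMSO. It fell 2.94-fold (-1.56, SE 0.15, limma adjusted p = 0.0002279), so the probes share the direction but not the size.

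Nqo1 read 0.05, -0.02 and -0.10 in RA, against 0.99, 1.01 and 0.95 in DMSO. The groups were well apart, a 2.01-fold fall (log2 difference -1.01, SE 0.07, limma adjusted p = 6.25e-05). Gclm read -0.48, -0.09 and -0.68 in RA, against 0.68, 0.72 and 0.66 in DMSO. It fell by 1.10 on the log2 scale (SE 0.16, limma adjusted p = 0.001087), with RA arrays more spread than DMSO arrays. Its partner Gclc read 3.46, 3.37 and 3.38 in RA, against 3.61, 3.52 and 3.57 in DMSO, a difference of -0.16 (SE 0.07) that did not pass (limma adjusted p = 0.07411). It stood at -0.50 with median scaling (limma adjusted p = 0.001262), which lowers all RA differences alike, and at 0.095 with quantile normalization (limma adjusted p = 0.2557). In all, Gclc was called lower in 5 of 20 alternatives. These included normexp background correction (-0.225, limma adjusted p = 0.01432) and the fit on the brightest probe of each gene alone (limma adjusted p = 0.04366).

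Txnrd1 read 5.83, 5.88 and 5.96 in RA, against 5.64, 5.70 and 5.70 in DMSO. The ratio was 1.16 (log2 difference 0.21, SE 0.07, limma adjusted p = 0.03758), but the log2 difference was -0.13 after median scaling and -0.18 after scaling to the spike-in controls, neither of which passed. It was 0.556 with quantile normalization (limma adjusted p = 0.0005759) and 0.563 on the authors' series values (limma adjusted p = 0.0005828). Gpx2 read 1.11, 0.94 and 1.18 in RA, against 1.29, 1.19 and 1.32 in DMSO. The arrays did not overlap, but the difference of -0.19 (SE 0.09) did not pass (limma adjusted p = 0.1004). It was -0.535 after median scaling (limma adjusted p = 0.001262) and -0.101 with quantile normalization (limma adjusted p = 0.4038). Srxn1 read 3.43, 3.29 and 3.32 in RA, against 3.35, 3.32 and 3.36 in DMSO, and these overlapped (log2 difference 0.005, SE 0.07, limma adjusted p = 0.9514). Its sign followed the scaling, at -0.34 with median scaling (limma adjusted p = 0.008842) and 0.26 with quantile normalization (limma adjusted p = 0.02155). Relative to the median gene it stood at 0.08.

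Slc7a11 read -6.30, -7.63 and -7.26 in RA, against -8.25, -8.30 and -8.26 in DMSO on its only probe of this design. None of these signals cleared background, so no fold is given. Without 1 sample at a time, the falls of Nfe2l2, Hmox1, Nqo1 and Gclm were called in all 6 fits. Keap1 was not called when DMSO replicate 1, 2 or 3 was left out (limma adjusted p between 0.05084 and 0.05839), and Txnrd1 was called only without RA replicate 1 (limma adjusted p = 0.0458). Among these fits Gpx2 passed only without RA replicate 3, at -0.245 (limma adjusted p = 0.04967).

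The treatments had no control sample in common. Of the member probes 9 lay on both designs, 1 for each gene but Srxn1, which was read by different probes. Nqo1 had a log2 difference of 0.60 in VC and -1.01 in RA, and Gclm 0.41 in VC and -1.10 in RA, on the same probe each. Nfe2l2 lay at -0.01 in VC and -0.93 in RA. Keap1 lay at 0.39 in VC and 0.35 in RA in the main scaling. Srxn1 and Gpx2, the largest rises in VC, lay at 0.005 and -0.19 in RA. Gene levels were not set across designs, and the difference between treatments was not tested.

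**Figure D4:**
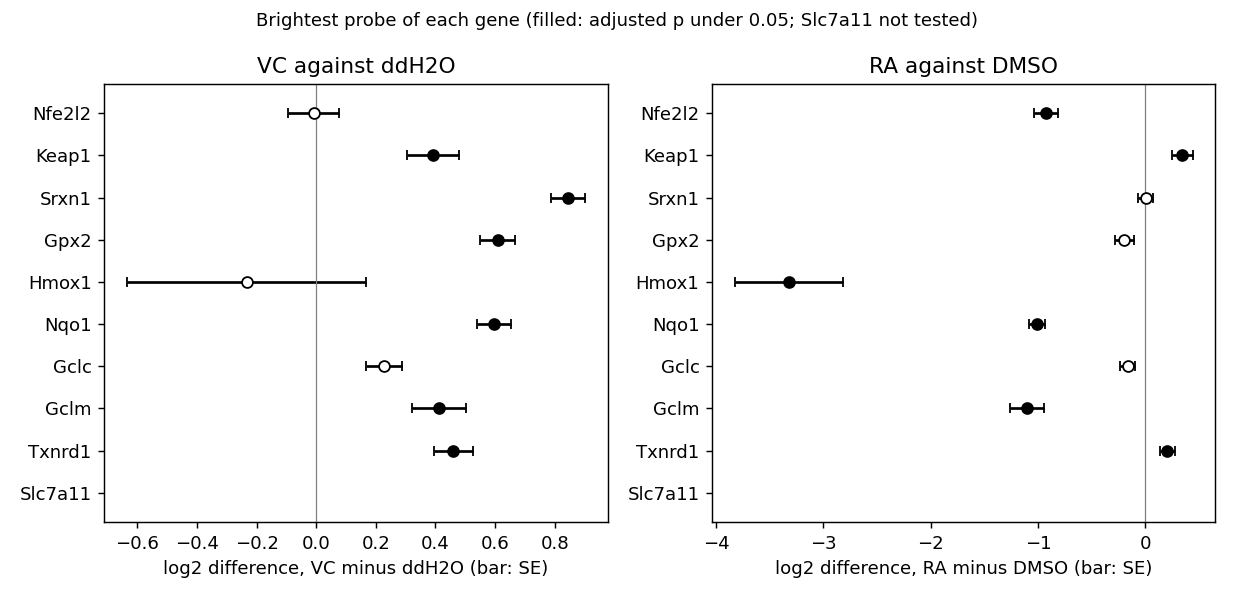
Log2 difference with its standard error for the brightest probe of each member (horizontal axis, log2 units), VC minus ddH2O at left and RA minus DMSO at right, on axes of different range. Filled points have an adjusted p under 0.05. VC points lie at or right of 0 except those of Hmox1 and Nfe2l2, and the RA point of Hmox1 at -3.32 is the farthest from 0.

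Other genes of the pathway were taken from lists of published roles, written with earlier results of these data known. Of 37 other NRF2 targets tested in VC, 4 rose and 3 fell, with a median log2 difference of -0.03, where 3.18% of all genes were called higher and 7.14% lower. Cbr3, a carbonyl reductase gene, was 1.55-fold higher in VC (log2 difference 0.64, SE 0.06). The ferritin light chain gene Ftl1 was 1.34-fold and the exporter gene Abcc4 1.31-fold higher. Gstp1 (0.38), a glutathione transferase gene, was the other gene of the list that rose. Abcc3 fell by 0.87, Aox1 by 0.37 and Me1 by 0.30 on the log2 scale. Ferritin and glutathione transferase genes have close relatives, and how far probes cross-hybridise among those was not measured.

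In RA, 20 of 38 such targets fell and 11 rose, with a median of -0.31, where 40.8% of all genes were called lower and 34.8% higher, with a median of -0.075. Calls were thus about as frequent as over all genes. The direction counted is that of the brightest probe. Other probes had the opposite sign in Cat (-0.606 against 1.184), Gstm3 (-1.526 against 0.43), Trim16 (-0.217 against 0.542) and Esd (0.141 against -0.248). Gsta3 fell by 2.32 and Abcc4 by 2.23 on the log2 scale, with Abcc4 on the only probe of that gene. Ephx1, the epoxide hydrolase gene, was 5.68-fold lower by its brighter probe, but the second probe lay at 0.545. Slc40a1, which encodes the iron exporter ferroportin, was 4.32-fold, Aox1 2.53-fold and Gstm2 2.42-fold higher. Cbr3 and Abcc4, higher in VC, were lower in RA, at -1.48 and -2.23.

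Of 20 partners and regulators of NRF2 tested, 1 rose and 1 fell in VC (median 0.10), against 3.18% and 7.14% of all genes. Mafg, a small MAF partner of NRF2, was 1.34-fold higher and Bach2, a repressor that competes for the same sites, fell by 0.37 on the log2 scale. In RA, 8 rose and 8 fell (median 0.03), close to the shares over all genes, 34.8% higher and 40.8% lower. Another probe had the opposite sign in Btrc (-0.482 against 0.362) and Rbx1 (0.819 against -0.692). Bach2 was 10.5-fold higher in RA, with a mean level of -0.24 in RA against -3.64 in DMSO, and its other probe lay at 3.16. The related repressor Bach1 stood at 0.62 (SE 0.08) on its only probe in the main scaling. Median scaling put the median of all genes at -0.416, against -0.075 in the main scaling, so the size for Bach1 depends on the scaling. The coactivator gene Crebbp was 8.32-fold higher on its only probe, and Nfe2 was 2.65-fold higher. Among the small MAF genes Maff fell by 1.59 and Mafg by 0.73 on the log2 scale, while Mafk lay at -0.01 and did not pass. Brca1 fell by 1.70 (SE 0.36) on its only probe, with a low mean level of -3.74 in RA against -2.04 in DMSO. Cul3, the ligase scaffold that KEAP1 recruits, lay at 0.04 in VC, where it did not pass, and at 0.405 in RA (limma adjusted p = 0.009002), about the size of the shift that scaling puts on all genes there.

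Slc7a11 is also a target of ATF4, the factor of the amino acid response, and 14 genes of that response were tested. In VC 3 fell, Vldlr by 0.84, Aldh1l2 by 0.74 and Chac1 by 0.69 on the log2 scale, and the highest of the 14 lay at 0.16 without passing (median -0.10), where 7.14% of all genes were called lower. In RA 11 fell and the other 3 did not pass, the highest at 0.03, with a median of -1.46, where 40.8% of all genes were called lower and 75.6% were called in either direction, with a median of -0.075. Cth, which makes cysteine from cystathionine, was 14.6-fold lower. Chac1, which degrades glutathione, was 7.49-fold lower, and Trib3 was 7.40-fold lower. Slc3a2, the heavy chain that pairs with xCT, lay at -1.63 in RA (SE 0.07) and at 0.12 in VC, where it did not pass.

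**Figure D5:**
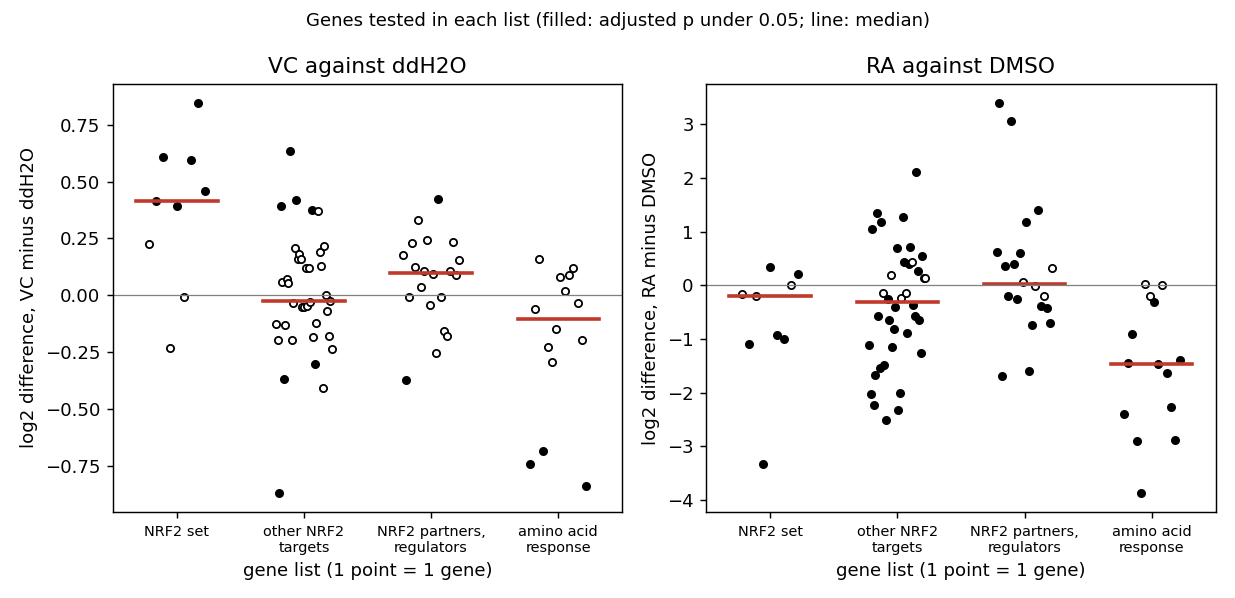
Log2 difference of each tested gene (1 point, brightest probe) in the NRF2 set, the other NRF2 targets, the partners and regulators and the amino acid response genes, VC minus ddH2O at left and RA minus DMSO at right, on axes of different range, with a line at the median. Medians run from 0.41 to -0.10 in VC and from 0.03 to -1.46 in RA.

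Some markers of cell identity were called in each comparison. Over all genes 3.18% were called higher and 7.14% lower in VC, and 34.8% higher and 40.8% lower in RA. Of 7 stem cell markers tested in VC, Esrrb, Klf4 and Zfp42 rose, by 0.40, 0.39 and 0.37. The sums given here add the signals of different probes, so they follow the strongest signal and are not levels of a whole list. The strongest stem cell signal was Dppa5a, with a mean of 8.90 in VC and 6.26 in RA. The strongest fibroblast signal in RA was Col1a2, with a mean of 5.11. The stem cell sum was 9.20 to 9.31 in VC, against 9.11 to 9.30 in ddH2O. The summed fibroblast markers stood at 1.57 to 1.63 in VC, against 1.94 to 2.05 in ddH2O, with Thy1 lower among 7 tested and Fap and Lum not well above background in either group. The blood and endothelial markers stood at -0.16 to 0.0 in VC, against 0.34 to 0.41 in ddH2O, with Cd34 lower among 4 tested and Ptprc and Cdh5 below background in both. In RA, 7 of 8 stem cell markers fell and Nanog rose, by 1.32 on its only probe. The VC design had no probe for Nanog. The log2 differences of those that fell ran from -2.07 for Sox2 to -5.96 for Esrrb, with Dppa5a at -2.13. The stem cell sum was 6.35 to 6.53 in RA, against 8.95 to 9.01 in DMSO. Fibroblast markers rose in 6 of 7 tested and Thy1 fell, with sums of 5.26 to 5.37 in RA, against 1.09 to 1.19 in DMSO. Fap, Lum and Postn were not well above background in either. Among 6 blood and endothelial markers 3 rose and 2 fell, where 75.6% of all genes were called. Kdr did not pass on its brightest probe (0.264), but its other probe lay at 3.707. Cdh5 was below background in both groups, and the sums of this list were 3.38 to 4.01 in RA, against 3.33 to 3.45 in DMSO. The part of these changes in the NRF2 results was not tested.

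The genes whose 6 values on the VC design ran most like those of Srxn1 were Arfgap2, Gpr107 and 1700029P11Rik, each with Pearson's r = 0.998 over 6 arrays among 14530 genes. Their VC differences were 0.43, 0.20 and 0.68 log2 units, all smaller than that of Srxn1, and Gpr107 did not pass (limma adjusted p = 0.06789). On the RA design the closest to Hmox1 were Stk38, Rnf168 and Cnep1r1, each with r = 0.999 over 6 arrays among 16015 genes and differences of -1.84, -0.425 and -0.206. With 6 arrays and so many genes, values of r this high are a description only.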

How the data were processed

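Total RNA of 12 samples was read on one-colour arrays of 2 designs, fitted separately. The deposited intensity per spot was background-subtracted and detrended with Feature Extraction (Agilent, version 10.7.3.1), per the file headers (version 10.7 in the submitters' processing notes). The deposited log2 series values were normalized by the authors in a step not given in the sources used here, and served as an alternative. From the intensities, log2 was taken, each array's 75th percentile over spots other than controls subtracted, outlier-flagged spots left out and spots of a probe averaged. Accessions were matched without versions to symbols in a RefSeq gene table of GRCm38.p6, used for names alone (27479 of 41174 probes on the VC design, 27235 of 55681 on the RA design). All probes well above background on at least 3 of 6 arrays entered limma 3.58.1 in R 4.3.3 (lmFit, eBayes), with Benjamini-Hochberg adjustment over all of them and calls at 0.05. A gene was counted by its brightest probe. The fit was also run on simulated data with known changes. How often it recovers changes of the sizes called in VC is not given here. The normexp alternative used median spot signals and left out spots whose local background exceeded 10 times the array's median. Its fitted background mean was -21.67 on ddH2O replicate 2, against -6.467 to -1.837 on the other arrays.

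The members, the lists and the tests were chosen with earlier results of these data known. Named were all 10 members, up to 3 rises and 3 falls of each of 3 lists with groups that did not overlap, and the 3 genes most like the member of largest called change. Gstp1, Bach1, Mafk, Cul3, Slc3a2 and the repeats of Cbr3 and Abcc4 were named outside that rule, after their values were seen. So were Cat, Gstm3, Trim16, Esd, Btrc and Rbx1, each for a probe of opposite sign. Alternatives covered scaling, background correction, filters, probe summaries, variance models, threshold, slide and replicate blocks and each sample left out. The number of arrays limits the precision.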

Additional observations from a re-analysis of the deposited data

How the results depend on the processing

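In VC the direction of Srxn1, Gpx2, Nqo1, Txnrd1, Gclm, Keap1 and Gclc was the same under all alternatives run, whereas the calls were not. The count of members called higher, 6, was 1 with spike-in scaling and 1 at an adjusted p under 0.01, in each case Srxn1. It was 4 with normexp, where Gclm (adjusted p = 0.05189) and Keap1 (adjusted p = 0.09382) no longer passed limma, and 6 with slide as a random block. With median scaling, 1 probe a gene, the mean of a gene's probes and a variance trend it was 7, Gclc being added. It was 0 without the filter on dim probes and with the slide block. With the replicate block it was also 0, with 7 at an unadjusted p under 0.05, and with each sample left out it ran from 0 to 4. Calls over all genes moved alike, from 1499 to 2491 when the model was fitted and adjusted on 1 probe a gene, 2326 with the mean of a gene's probes, 2658 with a variance trend, 401 with normexp, 128 with spike-in scaling, 12 at 0.01, 692 when VC replicate 2 was left out, 431 for VC replicate 3, 241 for ddH2O replicate 3, and 0 in the other fits that called no member. In RA the falls of Nfe2l2, Hmox1, Nqo1 and Gclm were called under all alternatives run. The 2 rises became 3 with quantile normalization and on the authors' series values, where Srxn1 was added. They became 0 with median scaling, spike-in scaling, normexp and at 0.01, 1 with the replicate block, and 0 to 2 with each sample left out. Without the filter on dim probes the count stayed at 2, but Txnrd1 no longer passed (limma adjusted p = 0.07034). Keap1 was then joined by Slc7a11, none of whose signals cleared background. The 4 falls became 7 with median scaling and 6 with normexp, where Gclc (limma adjusted p = 0.01432) and Gpx2 (limma adjusted p = 0.0193) were added. They became 5 with 1 probe a gene, with the mean of a gene's probes and with a variance trend. With each sample left out the falls stayed at 4 to 5. Median scaling put Srxn1 at -0.336 and Txnrd1 at -0.134, and spike-in scaling put Keap1 at -0.040 and Txnrd1 at -0.179. Same-numbered samples did not deviate together (r from -0.069 to 0.051 in VC and from -0.035 to 0.015 in RA), so the numbers were not taken as pairs. Signal over background limits Slc7a11 alone among the members.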
